A study of Mus musculus with 2 samples.

Results

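The 10 genes described here are core circadian clock genes, taken by symbol from both deposited count tables: Clock, Arntl, Per1, Per2, Per3, Cry1, Cry2, Nr1d1, Nr1d2 and Dbp. All 10 had reads in both libraries, out of 18497 annotated genes with a read in either library and 14787 with a read in each. They held 391 reads on 85 transcript models in replicate 1 and 358 reads on 75 models in replicate 2. The RNA came from hippocampal tissue of female mice aged 2 months, of the hybrid strain B6CASTF1/J, a cross between C57BL/6J and CAST/EiJ. The study has 1 group, hippocampus, with 2 libraries numbered biological replicates 1 and 2 and made from 2 µg of RNA each. No condition was compared, and the labels give no treatment and no time of day of collection. Whether the replicates were separate animals is not plain from the labels, so differences between these libraries may be technical. The p-values set such differences against counting error only and measure no spread between animals.

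The mammalian clock is a feedback loop of transcription. The activators CLOCK and BMAL1 (the product of Arntl) bind as a pair to E-box sites and switch on the Per and Cry genes, whose proteins return to the nucleus and repress that pair. A further loop runs through the nuclear receptors REV-ERBα and REV-ERBβ (Nr1d1 and Nr1d2), which repress Arntl, and Dbp is a directly driven output gene of the same sites. The master pacemaker lies in the suprachiasmatic nucleus of the hypothalamus, but most tissues, hippocampus among them, express these genes. Many of them change in level over the day, so the levels below belong to the unstated hour of collection, and its part in them was not tested.

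Long-read sequencing reads a whole cDNA copy of a transcript where the copy is complete. Replicate 1 held 826596 reads and replicate 2 held 745492 reads that were not on spike-in RNAs. Levels are CPM, the reads of a gene per 1000000 such reads, so that 1 read was 1.21 CPM in replicate 1 and 1.34 CPM in replicate 2. Where a gene had 0 reads, its level could still be up to 3.63 CPM in replicate 1 and 4.02 CPM in replicate 2. The 7 hippocampal neuron markers were all detected, with Hpca highest at 2191 CPM and Prox1, a dentate granule cell gene, lowest at 19.4 CPM. All 4 astrocyte and all 3 oligodendrocyte markers also had reads in both libraries, at medians of 592 and 389 CPM. Of 5 suprachiasmatic nucleus markers, Nms, Six6 and Lhx1 were at 0 in both libraries, and Avp and Prok2 had 1 read in each. Of 4 choroid plexus markers, Ttr had 271 reads in replicate 1 and 131 in replicate 2, Folr1 had 1 in each, and Aqp1 and Otx2 were at 0. In bulk RNA, fewer cells of a type and less RNA per cell cannot be told apart.

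By mean CPM over all reads, the repressor Cry2 was the most abundant of the 10 genes, and Clock and Per3 were the least abundant. Cry2 had 151 reads in replicate 1 and 120 in replicate 2, a level of 172 ± 15.4 CPM (mean ± SD over the 2 libraries, as throughout), above 93.5% of detected genes. Nr1d1 followed with 63 and 47 reads, at 69.6 ± 9.31 CPM. Genes were taken as ordered where the ranges of their library values did not overlap. The range of Cry2 lay above that of Nr1d1, and the lower Nr1d1 value, 63.0 CPM, lay just above the higher Dbp value, 61.7 CPM. Both values are from replicate 2, from 47 and 46 reads. Their 95% Poisson intervals, 46.3 to 83.8 and 45.2 to 82.3 CPM, overlapped, so the order of Nr1d1 and Dbp is not firm.

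From Dbp down to Cry1, the range of each gene overlapped that of the next. Dbp had 45 reads in replicate 1 and 46 in replicate 2, at 58.1 ± 5.14 CPM. Arntl had 27 and 42 reads, at 44.5 ± 16.7 CPM, and Nr1d2 had 23 and 33 reads, at 36.0 ± 11.6 CPM. Cry1 had 30 and 20 reads, at 31.6 ± 6.69 CPM, and its library values overlapped those of Nr1d2. The range of Dbp lay above those of Nr1d2 and Cry1. Dbp was also above Arntl, and Arntl above Nr1d2, within each library, although their ranges overlapped.

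The Period genes and Clock lay lowest. Per2 had 21 and 16 reads, at 23.4 ± 2.79 CPM, below Cry1 in both libraries. The 95% Poisson intervals of Per2 in replicate 1, 15.7 to 38.8 CPM, and Cry1 in replicate 2, 16.4 to 41.4 CPM, overlapped. The order of Cry1 and Per2 is thus not firm. Per1 had 13 and 18 reads, at 19.9 ± 5.95 CPM, a range that overlapped that of Per2. Per3 had 7 and 10 reads, at 10.9 ± 3.50 CPM. Clock had 11 and 6 reads, at 10.7 ± 3.72 CPM, so Per3 and Clock could not be told apart. The lower Per1 value, 15.7 CPM in replicate 1, had a 95% Poisson interval of 8.37 to 26.9 CPM. The higher Per3 value, 13.4 CPM in replicate 2, had an interval of 6.43 to 24.7 CPM. These intervals overlapped, so the place of Per1 above Per3 and Clock is not firm. The median over the 10 genes was 33.8 CPM, against 19.8 CPM over all detected genes. CPM here counts 1 read per cDNA and is not divided by length. The longest annotated coding transcripts are those of Clock with 9744 bases, Per3 with 5999 and Per2 with 5833, all among the 4 genes of lowest level, while that of Cry2 has 3976. The part of transcript length in these levels was not tested.

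**Figure D1:**
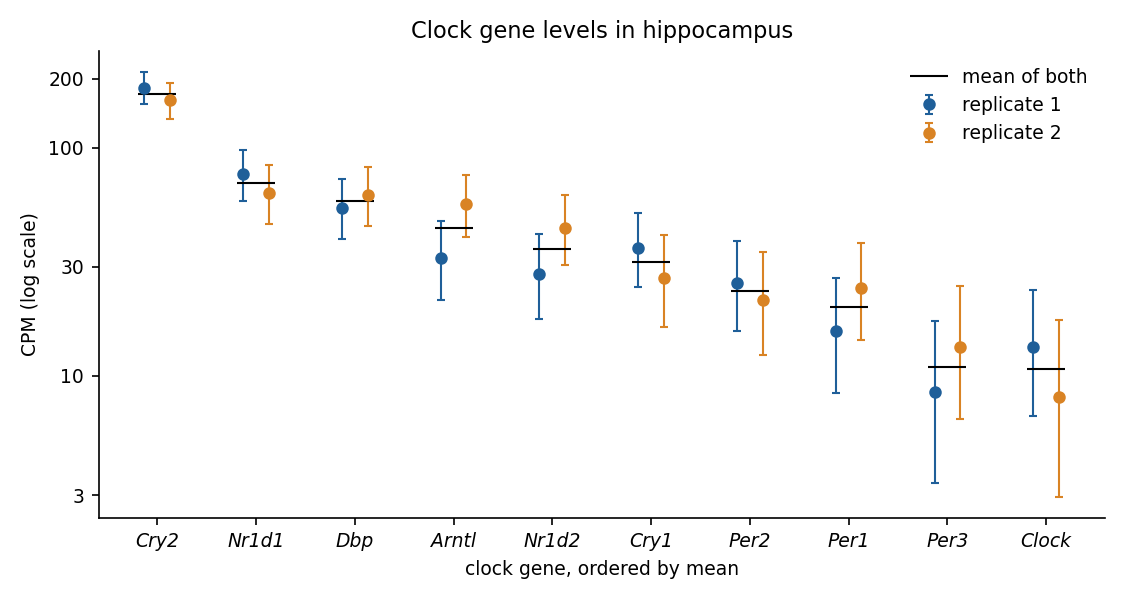
Level of each clock gene in CPM on a log scale, with 1 point per library, its exact 95% Poisson interval as a bar and the mean of both libraries as a line. Cry2 stands highest at 172 CPM, and the intervals of replicate 1 and replicate 2 overlap for every gene.

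The libraries were compared gene by gene, to see how far the replicates of this group agree on clock gene levels. Such a test sets 1 library against the other, not conditions. An exact binomial test with Benjamini-Hochberg adjustment over 9062 genes with at least 20 reads together called 0 of the 8 clock genes that reached that minimum, against 0.309% of all genes tested. Arntl had the lowest unadjusted p of the 8, 0.0295 by the exact test, with a log2 ratio of -0.78 for replicate 1 over replicate 2, and its adjusted p was 0.583. Arntl was thus lower in replicate 1, at 32.7 CPM (95% interval 21.5 to 47.5), than in replicate 2, at 56.3 CPM (40.6 to 76.2), without passing the test. Nr1d2, which encodes a repressor of Arntl, had a log2 ratio of -0.66, with an exact adjusted p of 0.798. Of the 8 genes, 4 were higher in replicate 1. Per3 and Clock had too few reads to be tested. Outside the clock genes, the choroid plexus marker Ttr was higher in replicate 1, with a log2 ratio of 0.90. Its adjusted p by the exact binomial test was 1.29e-06. Ttr thus differed between the libraries beyond counting error, and only the 2-fold limit kept it from being called.

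Clock encodes the basic helix-loop-helix partner of BMAL1. Its 11 and 6 reads were spread thinly along a gene of 23 exons (chr5:76209868-76304792, minus strand, mm10). Only 4 reads in replicate 1 and 3 in replicate 2 were full-splice reads, meaning reads whose introns match an annotated isoform, an unannotated combination of annotated sites, or a model with an unannotated site. None of these 7 reads matched an annotated isoform, and they fell into 5 different intron chains, of which 2 were seen in both libraries. A full-splice read need not span the whole transcript, and 1 of these reads, in replicate 1, had 17 exons. Of the reads that joined a first exon to exon 2, 6 of 7 in replicate 1 and 3 of 3 in replicate 2 used the upstream first exon of Clock-205 and not that of Clock-201.

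Clock splicing differed between reads at sites in the coding part. Exon 18 of Clock-201 (90 bases, chr5:76235766-76235855) was included in 4 of 5 reads in replicate 1 and 2 of 3 in replicate 2, and no annotated isoform skips it. Exon 21 (chr5:76229358-76229563) can begin at either of 2 acceptors 3 bases apart, and the longer form was found in 3 of 5 reads in replicate 1 and 2 of 4 in replicate 2. Both forms of exon 21 are annotated. Exon 19 (153 bases, chr5:76231396-76231548), the exon lost from the transcript in the classical Clock mutant mouse, was spliced in at both of its ends in 5 reads of replicate 1 and 3 of replicate 2, and 0 reads in either library had an intron spanning it. With so few reads, skipping at a low rate was not detectable. The sequences show the exon and the acceptor bases in capitals, with the 15 neighbouring transcript bases on each side in lower case, 5′ to 3′ on the minus strand. They come from the GENCODE M21 transcript sequences of mm10, the reference strain, and not from reads.
Clock exon 18 with its neighbours: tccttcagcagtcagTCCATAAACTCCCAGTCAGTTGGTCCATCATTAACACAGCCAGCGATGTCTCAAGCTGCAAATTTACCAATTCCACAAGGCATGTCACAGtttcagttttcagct
Clock with exon 18 skipped: tccttcagcagtcagtttcagttttcagct
Clock with the longer exon 21: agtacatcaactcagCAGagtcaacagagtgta
Clock with the shorter exon 21: agtacatcaactcagagtcaacagagtgta
Removing 90 or 3 bases leaves the reading frame in step. With 3 to 5 reads behind each share, the exact 95% intervals run from 28.4 to 99.5% and from 9.43 to 99.2% for exon 18.

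Arntl (chr7:113207465-113314126, plus strand) encodes BMAL1, and its reads fell into more intron chains than those of any other of the 10 genes. Full-splice reads were 24 of 27 in replicate 1 and 40 of 42 in replicate 2. They fell into 15 intron chains, 5 of them in both libraries, and Arntl-201 was the only annotated one. Arntl-201 took 12 of the 24 full-splice reads in replicate 1 and 21 of the 40 in replicate 2, 51.2 ± 1.77%. The next chain, with 3 and 8 reads, differed from Arntl-201 by 3 bases at the start of exon 13.

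At the acceptor of exon 13 (chr7:113299187-113299433, plus strand, mm10), Arntl reads split between a longer and a shorter form. Of the reads across this place, 20 of 26 in replicate 1 and 30 of 41 in replicate 2 kept the first 3 bases, chr7:113299187-113299189, a share of 75.0 ± 2.65%. The other reads joined exon 12 to the base after them, through an intron that GENCODE M21 does not list. Both libraries thus held both forms, at 76.9% (exact 95% interval 56.4 to 91.0) in replicate 1 and 73.2% (57.1 to 85.8) in replicate 2. Capitals mark the 3 bases, on the plus strand.
Arntl with the 3 bases: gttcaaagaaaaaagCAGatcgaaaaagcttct
Arntl without the 3 bases: gttcaaagaaaaaagatcgaaaaagcttct
The 3 bases lie in the coding part and keep the frame.

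Other Arntl reads differed elsewhere. A coding exon of 21 bases (chr7:113281402-113281422), annotated in Arntl-206, was included in 3 of 25 reads in replicate 1 and 4 of 41 in replicate 2, 10.9 ± 1.59%, and keeps the frame. Capitals mark that exon, on the plus strand.
Arntl with the 21-base exon: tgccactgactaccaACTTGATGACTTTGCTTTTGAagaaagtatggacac
Arntl without it: tgccactgactaccaagaaagtatggacac
The noncoding exon 3 (128 bases, chr7:113274626-113274753) was included in 19 of 23 reads in replicate 1 and 38 of 40 in replicate 2, 88.8 ± 8.76%. An unannotated acceptor that adds 15 bases (chr7:113306003-113306017) ahead of exon 17 was used in 2 of 26 and 2 of 41 reads.

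The Period genes encode the large repressor proteins that set the period of the clock. Per2 (chr1:91415982-91459324, minus strand) gave 12 full-splice reads of 21 in replicate 1 and 7 of 16 in replicate 2. Of these, 9 and 6 matched Per2-201, with 23 exons and 5833 bases. Per2 also had acceptors 3 bases apart (chr1:91448860-91448862, minus strand), where 10 of 12 reads in replicate 1 and all 7 in replicate 2 kept the 3 bases, shown in capitals.
Per2 with the 3 bases: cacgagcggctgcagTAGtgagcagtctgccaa
Per2 without the 3 bases: cacgagcggctgcagtgagcagtctgccaa
Intron chr1:91432893-91433395, 503 bases, was kept in 2 of 14 spliced reads in replicate 1 and 2 of 10 in replicate 2.

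Per3 (chr4:151003652-151044665, minus strand) had few reads but many structures. Its 6 full-splice reads in replicate 1 and 7 in replicate 2 fell into 10 chains, and Per3-201, with 21 exons, took 2 reads in each library. Each of the other 9 chains was seen once, and they held from 5 to 22 exons, so some covered only part of the gene. Per3 has annotated acceptors 3 bases apart at chr4:151012930-151012932 (minus strand), and 5 of 5 reads in replicate 1 and 7 of 8 in replicate 2 kept the 3 bases, shown in capitals.
Per3 with the 3 bases: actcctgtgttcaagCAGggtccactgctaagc
Per3 without the 3 bases: actcctgtgttcaagggtccactgctaagc
Acceptors 3 bases apart were thus seen in Clock, Arntl, Per2 and Per3, and in Clock and Arntl both libraries held both forms. The shorter form had only 2 reads, in replicate 1, for Per2 and 1 read, in replicate 2, for this Per3 site. How common such sites are over all genes was not counted. Per3 has a further such site at chr4:151013770-151013772, where the longer form is unannotated and was found in 2 of 5 reads in replicate 1 and 1 of 6 in replicate 2, so both libraries held both forms there too. A coding exon of 129 bases in Per3 (chr4:151025072-151025200) was included in 5 of 5 and 5 of 6 reads.

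**Figure D2:**
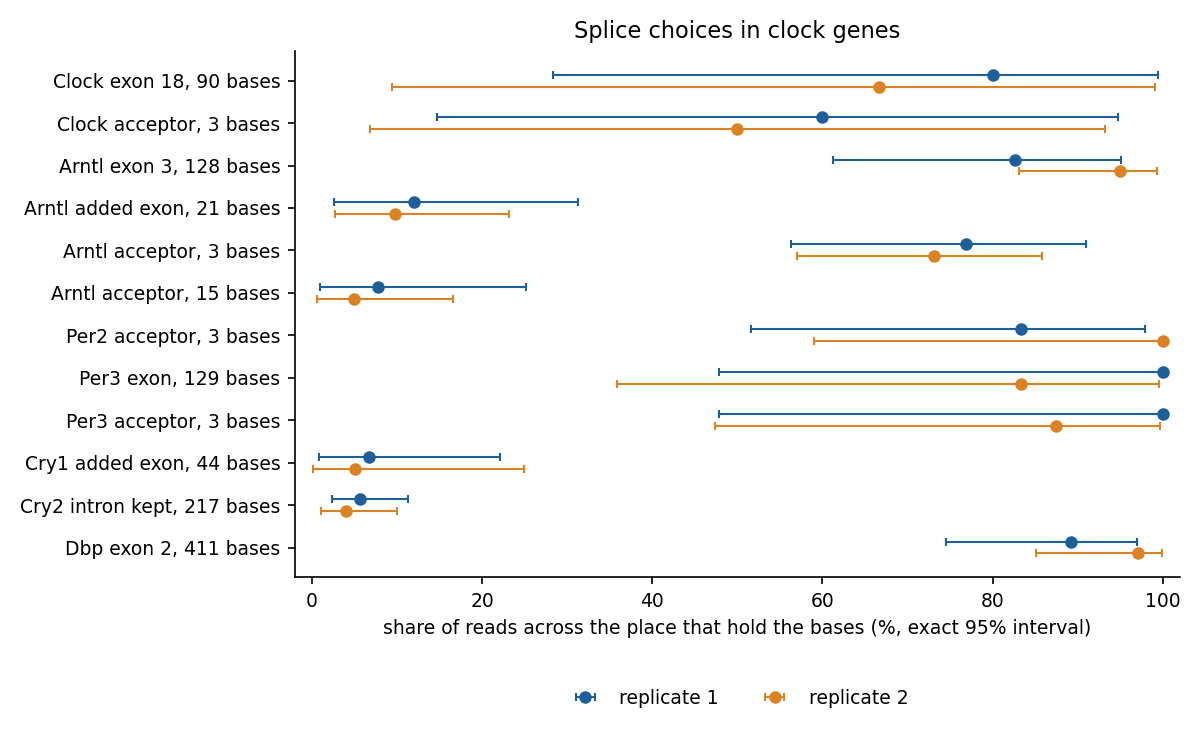
Share of reads holding the exon, acceptor bases or intron named on the vertical axis, among reads that cross that place, in percent, with 1 point per library and its exact 95% Clopper-Pearson interval. The Arntl 3-base acceptor was kept in 76.9% of reads in replicate 1 and 73.2% in replicate 2, and the intervals for Clock, Per2 and Per3 are wide.

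Per1 (chr11:69095217-69109960, plus strand) had the lowest share of full-splice reads among the 10 genes. Only 1 of 13 reads in replicate 1 and 2 of 18 in replicate 2 were full-splice, although the annotated transcript, with 23 exons and 4671 bases, is shorter than those of Per2 and Per3. Per1-201 itself was found once, in replicate 2. A chain joining an upstream first exon to exon 2 was found once in each library. The Per1 share, 9.68% over both libraries, was above that of only 2.85% of the 1927 protein-coding genes with a transcript of 4000 to 5999 bases and at least 20 reads. The Per1 reads were unevenly spread over the gene. Across introns 2 to 17 there were 2 reads in replicate 1, and across the last 4 introns 8 to 9. In replicate 2 the last 4 introns had 5 to 6 reads, while introns 15 to 17 had 6 and intron 18 between them had 2. A further 7 reads in replicate 2 fell in a single-exon genomic model, a class for reads that match no spliced structure, while replicate 1 had none of that class.

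Cry1 (chr10:85131700-85185064, minus strand) and Cry2 (chr2:92403646-92434043, minus strand) encode the cryptochromes, the main repressors of CLOCK and BMAL1, and their reads were mostly full-splice. All 30 Cry1 reads in replicate 1 and all 20 in replicate 2 were full-splice, a share above that of 96.5% of the 3594 genes with transcripts of 2000 to 3999 bases. Cry1-201, with 13 exons, took 28 and 19 of them, 94.2 ± 1.18%. The remaining 2 reads in replicate 1 and 1 in replicate 2 shared a single chain with an unannotated exon of 44 bases in intron 1 (chr10:85167945-85167988, minus strand).

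Cry2 was full-splice in 118 of 151 reads in replicate 1 and 96 of 120 in replicate 2. Pooled, its share of 79.0% was above that of 33.8% of the same 3594 genes. Cry2-201, with 12 exons, took 105 and 89 of the full-splice reads, 90.8 ± 2.63%. The next chain, with 6 reads in replicate 1 and 4 in replicate 2, kept an intron of 217 bases between coding exons (chr2:92413419-92413635, minus strand). Over all spliced reads crossing it, this intron was kept in 7 of 124 and 4 of 100, 4.82 ± 1.16%, and its length is not a multiple of 3. Another 22 reads in replicate 1 and 17 in replicate 2 lay wholly within the last exon of Cry2-201. The deposited tables put those of replicate 1 in the incomplete class and those of replicate 2 in the genomic class, so the class differs between libraries for reads at the same place.

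**Figure D3:**
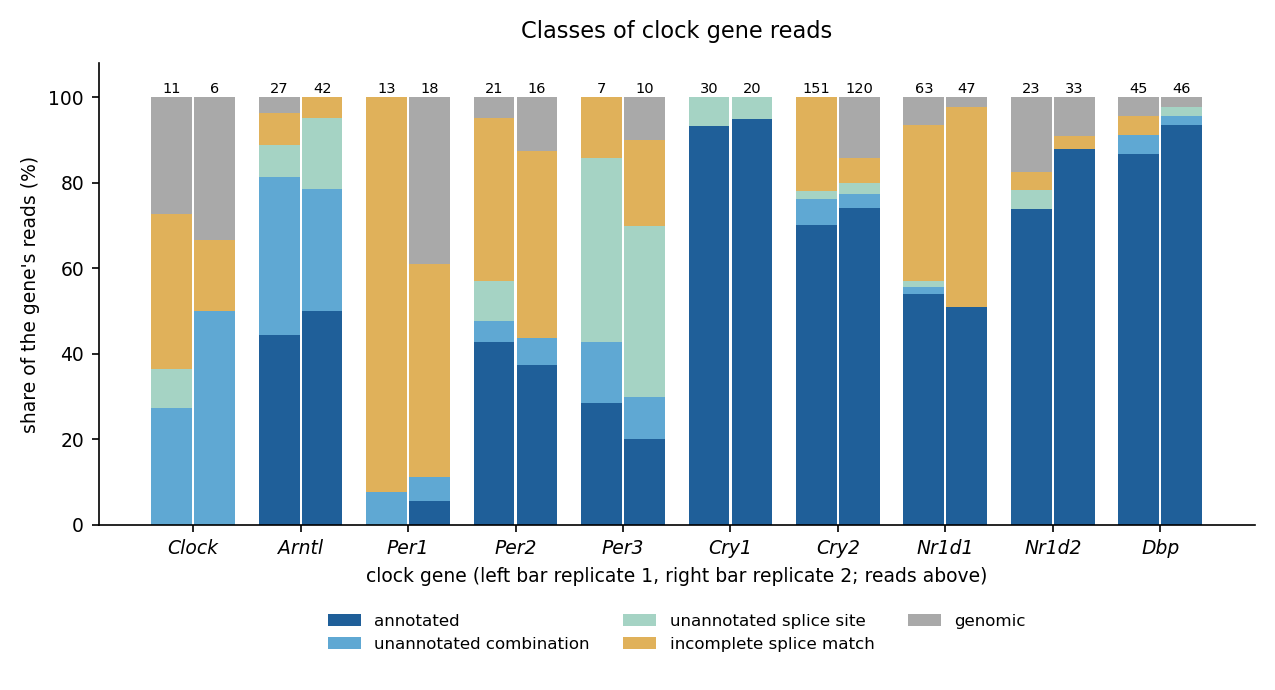
Share of each clock gene's reads in 5 classes of transcript model, in percent, with replicate 1 on the left and replicate 2 on the right of each pair and the number of reads above each bar. Cry1, Dbp and Nr1d2 are mostly annotated, Clock has no annotated read in either library, and Per1 is mostly incomplete or genomic.

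Nr1d1 (chr11:98767932-98775333, minus strand) encodes REV-ERBα, a haem-binding receptor that represses Arntl, and its reads were mostly full-splice reads and a block of shorter 3′ reads. Full-splice reads were 36 of 63 in replicate 1 and 24 of 47 in replicate 2, 54.1 ± 4.30%. The pooled share of 54.5% was above that of 8.43% of the genes with transcripts of like length. Nr1d1-201, with 8 exons, took 32 of these reads in replicate 1 and 23 in replicate 2. Reads across each of introns 1 to 4 were 34 in replicate 1 and 23 to 24 in replicate 2, against 55 in replicate 1 and 41 to 42 in replicate 2 across introns 5 to 7. The step lay inside exon 5 (644 bases, chr11:98770188-98770831, minus strand). A model of the last 4 exons alone held 19 reads in replicate 1 and 14 in replicate 2. Its 5′ end was recorded at 98770426 in replicate 1, the annotated start of Nr1d1-202. The files give 1 end per model and not per read, so this base is not the measured start of each read.

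Nr1d2 (chr14:18204054-18239127, minus strand) encodes REV-ERBβ, the close relative of REV-ERBα, and showed no such step. Full-splice reads were 18 of 23 in replicate 1 and 29 of 33 in replicate 2, although its transcript of 4663 bases is longer than the 2721 bases of Nr1d1. Nr1d2-201, with 8 exons, took 17 and 28 of them, 95.5 ± 1.49%.

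**Figure D4:**
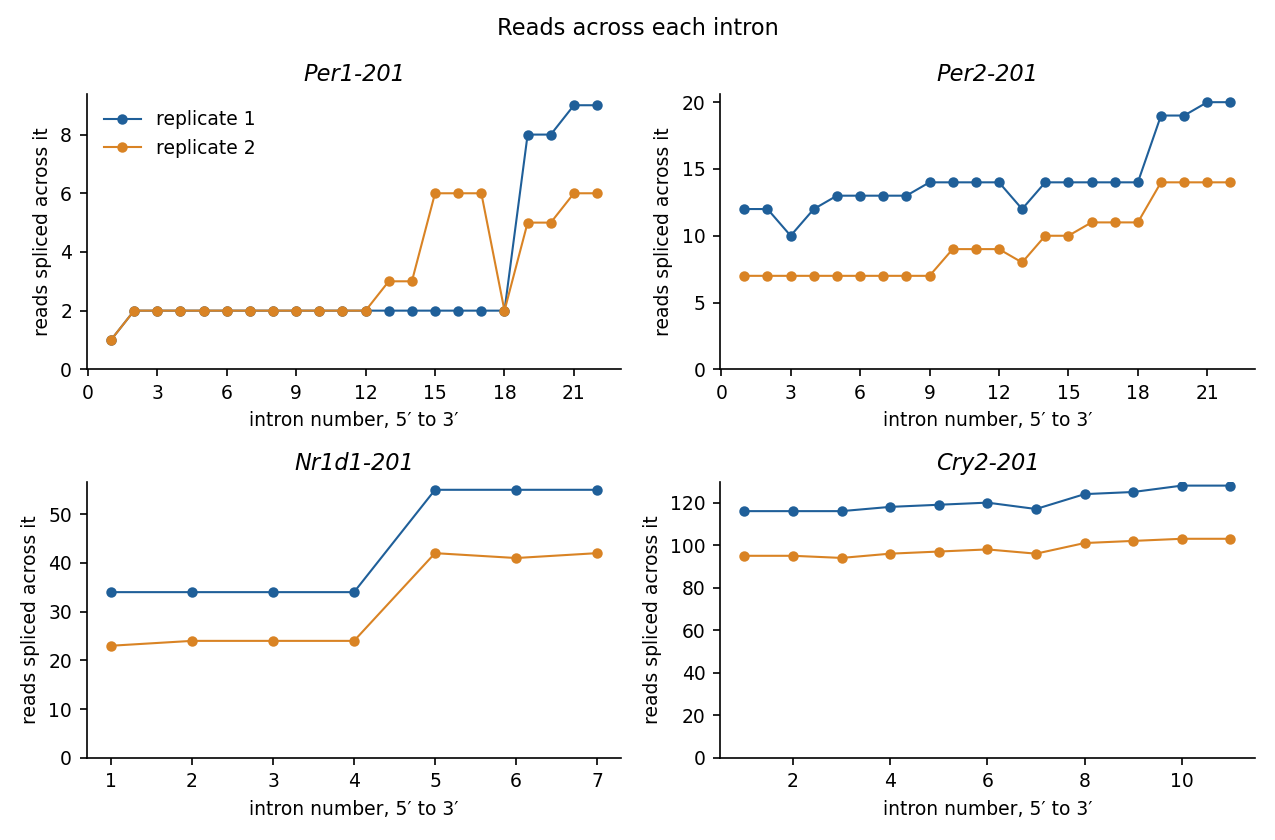
Reads spliced across each intron of the leading annotated transcript of Per1, Per2, Nr1d1 and Cry2, numbered 5′ to 3′, with 1 line per library. Nr1d1 steps up between introns 4 and 5 in both libraries, Per2 rises towards the 3′ end in both, Per1 rises at the last 4 introns in replicate 1 and has peaks on both sides of intron 18 in replicate 2, and Cry2 is nearly level at 116 to 128 reads in replicate 1 and 94 to 103 in replicate 2.

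Dbp (chr7:45705088-45710203, plus strand) encodes a bZIP activator of the proline and acidic amino acid-rich family that carries clock output to other genes. It has the shortest transcript of the 10, 1837 bases in 4 exons, and its reads were full-splice in 41 of 45 in replicate 1 and 45 of 46 in replicate 2. Dbp-201 took 33 and 34 of these, 78.0 ± 3.49%. Dbp-204, an annotated isoform that skips the coding exon 2 (411 bases, chr7:45706606-45707016, plus strand), had 4 reads in replicate 1 and 1 in replicate 2. Dbp-205, an annotated form with a retained intron that begins within intron 2, had 2 and 8 reads. Exon 2 was included in 33 of 37 and 34 of 35 reads that crossed it.

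Isoform use was compared between the libraries by Fisher's exact test on the leading chain, over genes that had more than 1 chain and 20 or more full-splice reads per library. Of the clock genes, 5 could be tested (Arntl, Cry1, Cry2, Nr1d1 and Dbp) and 0 were called, against 0.223% of the 4476 genes tested. Their exact unadjusted p-values ran from 0.480 for Cry2 to 1.0 for Arntl and Cry1, and none was under 0.05. Every adjusted p was 1.0. For the leading Arntl chain the exact 95% intervals of the share were 29.1 to 70.9% in replicate 1 and 36.1 to 68.5% in replicate 2.

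Over the 10 genes the median share of full-splice reads was 78.5%, from each gene's mean over the libraries. Clock and Per3, with 17 reads each over both libraries, are among them. Over the 8773 protein-coding genes with at least 20 reads the median was 82.6%, from shares pooled over both libraries. The share depends on length: its median over all such genes was 90.7% for transcripts under 2000 bases and 51.5% at 6000 bases or more. Of the 10 genes, 8 had at least 10 full-splice reads over both libraries, and in all 8 the leading chain was annotated. Clock and Per1 did not reach that number.

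Several clock genes share exon bases with a gene on the other strand, and the sources used here do not say whether the counting used strand. Nr1d1 shares 263 bases (chr11:98768157-98768419) with Thra, a thyroid hormone receptor gene, which had 255 reads in replicate 1 and 241 in replicate 2. Dbp shares 539 bases, its whole last exon (chr7:45709665-45710203), with Sphk2, which had 26 and 27 reads. Arntl shares 33 bases with Gm45355, which had 2 and 1 reads, and Cry2 shares 295 with D930015M05Rik, which had 0 in both libraries. Spliced reads carry the gene's own junctions, while single-exon reads in these places cannot be given to a strand from these files.

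Further clock genes were taken from a list by role. The 23 described here had reads in both libraries, at a median of 28.3 CPM. The highest were Tef, a bZIP factor of the same family as Dbp, at 275 ± 5.15 CPM, and the kinase gene Csnk1d, whose product phosphorylates the PER proteins, at 148 ± 0.0281 CPM. The lowest were Fbxl21, an F-box gene of cryptochrome turnover, at 1.28 ± 0.0931 CPM with 1 read in each library, and Arntl2, a close relative of Arntl, at 3.09 ± 2.47 CPM with 4 reads in replicate 1 and 1 in replicate 2. Npas2, a close relative of Clock, was at 24.5 ± 8.98 CPM. Npas2 had 15 reads in replicate 1 and 23 in replicate 2, against 11 and 6 for Clock, so Npas2 stood above Clock in both libraries.

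Of the activating ROR receptor genes, whose products act on the same sites as the REV-ERBs, Rora was at 28.3 ± 7.83 CPM and Rorb at 6.85 ± 4.00 CPM. Of the 14 genes of this list with at least 20 reads together, 0 were called by the exact binomial test, against the same 0.309% of all genes, and 1 had an unadjusted p under 0.05, where 672 of all 9062 genes tested did, a like share. That gene was Usp2, a deubiquitinase gene, with 45 reads in replicate 1 and 68 in replicate 2, an exact p of 0.00808 and an adjusted p of 0.379.

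**Figure D5:**
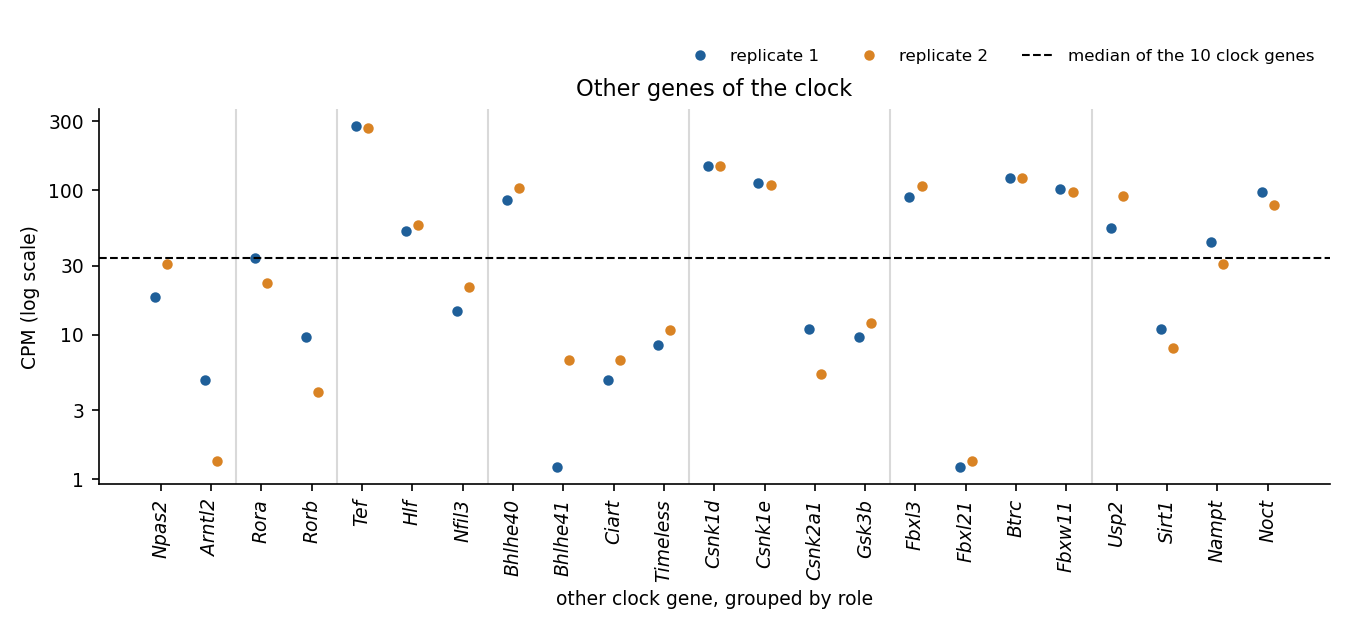
Level of 23 further clock genes in CPM on a log scale, grouped by role and separated by grey lines, with 1 point per library; the dashed line is the median of the 10 clock genes, 33.8 CPM. Tef stands highest at 275 CPM and Fbxl21 lowest at 1.28 CPM.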

How the data were processed

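For each of 2 hippocampus libraries the authors deposited raw read counts per transcript model, with no normalization. Per the text deposited with the files, the authors used mm10 and GENCODE M21, and per the file headers TALON made the models. Not given in the sources used here: the aligner, the platform and strand handling. TALON gives each model a class (annotated, unannotated combination, unannotated splice site, incomplete splice match, genomic), an exon count and a length. Other deposited values used were exon positions.

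Counts were summed per gene, and CPM was taken over reads not on spike-ins. Log2 ratios had 0.5 read added to each count. Models were matched between libraries by their introns. Library differences were tested with exact binomial tests (at least 20 reads together, adjusted p under 0.05, at least 2-fold) and isoform shares with Fisher's exact tests, adjusted by Benjamini-Hochberg over all genes; both procedures were checked on simulated data. Intervals are exact 95% Poisson for levels and Clopper-Pearson for shares, and 3 reads is the most that 0 observed reads allow. Since reads may be copies of one molecule, intervals and floors cover counting error only. Named genes are the 10 clock genes, 23 further clock genes (the 2 highest, the 2 lowest, those passing a test), and genes with overlapping exons; Npas2, Rora, Rorb and Usp2 were added after their values were seen, and 1 gene of the list is not reported here. Members and lists were chosen with earlier results of these data known. Alternatives changed read minima, fold, classes counted and scaling (TMM from edgeR 4.0.16, size factors from DESeq2 1.42.0, R 4.3.3), and left out each library. Python 3.11.15, pandas 2.3.3 and scipy 1.17.1 were used.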

Additional observations from a re-analysis of the deposited data

Results flagged for a closer look

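Unannotated models classed as antisense overlapped the span of some of the clock genes, introns included. They are outside the gene levels above. Over Arntl and Clock they had more than the 3 reads that a count of 0 allows in each library. How often such models overlap other genes was not counted, so these reads have no background to be set against. Strand use in the counting is unknown, so the strand of reads in single-exon models is not firm. Over Arntl the models classed as antisense held 17 reads in replicate 1 and 24 in replicate 2, beside 27 and 42 reads of Arntl itself. All 11 of these models, 6 in replicate 1 and 5 in replicate 2, had a single exon. Over Clock they held 10 reads in replicate 1 and 5 in replicate 2, beside 11 and 6 reads of Clock, and 6 of the 7 models had a single exon. Per1 had 2 and 10 such reads, and Cry2, Nr1d1 and Dbp had 0.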

How the results depend on the processing

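No clock gene was called under any of the alternatives, which tested between 6 and 10 of them, and their lowest adjusted p ranged from 0.386 to 0.952 by the exact binomial test. Counting full-splice reads only moved the median level of the 10 genes to 47.3 CPM, since the total then holds fewer reads. Of 60 single-gene levels over all settings, 8 moved by more than 1 SD, all under this setting. Leaving out 1 of 2 libraries cannot move a mean by 1 SD, so those settings were no check of single-gene levels. Full-splice CPM was 2.98 for Per1, 207 for Cry2, 84.1 for Dbp, 63.3 for Arntl and 57.8 for Nr1d1, so Nr1d1 no longer followed Cry2. Per1 was then the lowest of the 10 genes, below Clock at 6.77 CPM and Per3 at 12.7 CPM. Without either library the median ranged from 30.2 to 35.5 CPM. Over all genes, 52 were called with no fold limit, 59 once genomic models were dropped and 14 when full-splice reads alone were counted, against 28. Without genomic models the Per1 log2 ratio turned to 0.085, with an adjusted p of 1.0, since its 7 genomic reads are all in replicate 2. With incomplete matches counted as isoforms, 6 genes passed the isoform test, against 10. The median full-splice share was 83.7% with genomic reads left out of the total, and without either library it ranged from 75.0 to 78.2%. The leading chain was annotated in 8 of 9 genes when the minimum was 5 full-splice reads, in 6 of 6 when it was 20, and in 8 of 10 with incomplete matches counted as isoforms. Without replicate 1 it was 6 of 6, and without replicate 2 it was 7 of 7. No paired analysis was possible because the study has 1 group. Depth limits Clock, Per3 and Per1 most, where single reads set the shares.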
